A study of Mus musculus with 6 samples.

Results

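The genes described here encode the proteins of the cytosolic ribosome. They were chosen by name, as every row whose symbol has the standard form of a large-subunit (Rpl) or small-subunit (Rps) protein, together with Rplp0, Rplp1, Rplp2, Rpsa, Fau and Rps27rt. This gave 91 of the 35148 gene rows, 54 for the large and 37 for the small subunit. Of these, 78 are core genes with 1 gene per protein of the mouse ribosome, 9 are paralogs and 4 are processed pseudogenes, which are spliced copies pasted back into the genome. Rps4l is counted among the paralogs, although GENCODE lists it as a transcribed processed pseudogene.

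The RNA came from the PVH, the paraventricular nucleus of the mouse hypothalamus, a region whose neurons release hormones and regulate feeding and stress responses. All mice carried the floxed allele Ruvbl2 fl/fl. The libraries AAV2-Cre-GFP 1 to 3 came from mice whose PVH was injected with AAV2-Cre-GFP, a virus that delivers the recombinase Cre with a fluorescent protein, and the libraries AAV2-GFP 1 to 3 came from mice given AAV2-GFP, which lacks Cre. Tissue was taken 8 weeks after injection, and the design states that Cre was meant to delete Ruvbl2 in a study of synaptic plasticity. Age, sex, the promoter behind Cre and whether animals were pooled are not given in the labels, and the labels do not say that libraries are separate animals, so p-values cover only differences between these 6 libraries, which may be technical.

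A cytosolic ribosome joins a small subunit, which reads the messenger RNA, to a large subunit, which forms peptide bonds. Ribosomal proteins are needed in nearly equal amounts, and their messenger RNAs are among the most abundant in any cell. Most of these messenger RNAs begin with a C followed by a run of pyrimidines, the 5′ terminal oligopyrimidine (TOP) tract, through which mTOR signalling and the protein Larp1 control their translation together. RUVBL2, the targeted ATPase, works with RUVBL1 in the R2TP complex, which helps assemble the small nucleolar particles that modify ribosomal RNA.

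Library totals ran from 41890769 to 54702785 counts. Ruvbl2 itself had 9.53, 9.10 and 9.51 FPKM (fragments per gene scaled by exon length and library size by the authors) in AAV2-Cre-GFP libraries, against 9.90, 7.36 and 8.72 FPKM in AAV2-GFP libraries. The groups overlapped (log2 difference 0.08 ± 0.11 (SE), edgeR adjusted p = 0.773), so the level of the targeted gene does not separate the libraries the way their labels do, and without AAV2-GFP 2 the sign turned (-0.03). A gene-level count does not show which exons are present. Libraries are called by their labels throughout. All 8 markers of neurons and all 8 of PVH neurons had counts. The PVH neuron markers summed to 284, 303 and 582 CPM (counts scaled to an equal library size) in AAV2-Cre-GFP libraries, against 338, 754 and 808 CPM in AAV2-GFP libraries. The groups overlapped, and 1 of the 8 log2 differences was above 0 (median -0.67). At an unadjusted edgeR p under 0.05, 4 were lower and 0 higher, where 9.11% of all genes were lower and 8.11% higher. DESeq2 called 2 lower and 0 higher. It called 5.4% lower and 3.66% higher of the 16304 genes to which it gave an adjusted p. The summed level of 7 astrocyte markers was 2114 to 2361 CPM in AAV2-Cre-GFP libraries against 1954 to 2066 CPM in AAV2-GFP libraries, with no overlap. The single astrocyte markers were mixed: 6 of 7 log2 differences were above 0 (median 0.10). At an unadjusted edgeR p under 0.05, 2 were higher and 1 lower, and DESeq2 called 2 higher and 1 lower. These counts, and those of the markers that follow, stand beside the same shares over all genes. The summed level of 8 neuron markers was lower in AAV2-Cre-GFP libraries, at 4313 to 4591 CPM against 5068 to 5193 CPM in AAV2-GFP libraries. The edgeR log2 differences were below 0 for all 8. At an unadjusted edgeR p under 0.05, 5 were lower and 0 higher, and DESeq2 called 4 lower and 0 higher. The summed level of 6 ependyma and choroid plexus markers was higher, at 144 to 176 CPM in AAV2-Cre-GFP libraries against 101 to 109 CPM in AAV2-GFP libraries. All 6 were higher at an unadjusted edgeR p under 0.05, and DESeq2 called 4 higher and 0 lower. Transcripts of other organs stood out in 3 libraries: 5 testis genes summed to 298 CPM in AAV2-GFP 1 and to 1.5 CPM or less elsewhere, 6 kidney genes to 411 and 443 CPM in AAV2-Cre-GFP 2 and 3 and to 38.4 CPM or less elsewhere, and 5 skeletal muscle genes to 160 CPM in AAV2-Cre-GFP 3 and to 12.8 CPM or less elsewhere. These 3 are called the libraries with other organs' transcripts below. The rest were not free of them: the kidney genes summed to 13.2 CPM in AAV2-Cre-GFP 1 and to 21.7 and 25.2 CPM in AAV2-GFP 2 and 3. The row CT010467, annotated as ribosomal RNA, had 8246, 6272 and 3399 FPKM in AAV2-Cre-GFP libraries and 1037, 1037 and 972 FPKM in AAV2-GFP libraries. The part of cell makeup, organ transcripts and ribosomal RNA in the results that follow was not tested, and in bulk tissue fewer cells of a type and less RNA per cell cannot be told apart.

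Ribosomal protein genes sat slightly higher with AAV2-Cre-GFP as a set, but no single gene passed the test. Of the 91 genes, 88 had enough counts to test, and 69 of the 88 had a log2 difference above 0, with a median of 0.10 (7.48% higher) and quartiles of 0.02 and 0.20. Over all 20865 genes tested the median was -0.01, with 49.0% above 0 and quartiles of -0.18 and 0.19. Large-subunit genes were above 0 in 43 of 51 cases (median 0.13) and small-subunit genes in 26 of 37 cases (median 0.09). With edgeR's quasi-likelihood test, 0 of the 88 passed an adjusted p of 0.05, where 0.00959% of all tested genes did. The smallest adjusted p was 0.0705.

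At an unadjusted edgeR p under 0.05, 22 of the 88 genes were higher with AAV2-Cre-GFP, where 8.11% of all genes were, and 1 was lower, where 9.11% of all genes were. In TMM-scaled CPM, all 3 AAV2-Cre-GFP libraries lay above all 3 AAV2-GFP libraries for 25 of the genes (11.1% of all genes) and below them for 3, Rps27, Rps20 and Rps4l (11.7% of all genes). In the authors' FPKM, which carry no TMM scaling, the counts were 36 above (14.1% of all genes) and 2 below, Rps27 and Rps20 (8.8% of all genes). Overlap of single genes is given in FPKM in the text that follows. DESeq2 gave an adjusted p to 16304 genes and called 1477 of them. It called 3.66% of the 16304 genes as higher, and 9 of the ribosomal protein genes. Among the 9 were Rps27rt, Rpl31, Rpl5, Rps28, Rpl23, Rpl7, Rpl37a and Rps14. It called 5.4% of the 16304 genes as lower, and 1 of the ribosomal protein genes, Rps27. In an edgeR fit without the 3 libraries with other organs' transcripts, which leaves 1 AAV2-Cre-GFP library, 4 of them passed an adjusted p of 0.05 as higher (1.24% of all genes) and 3 as lower (3.57% of all genes).

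The difference was uneven across libraries. Counts of the 91 genes made up 1.02%, 0.957% and 0.979% of the total in AAV2-Cre-GFP 1 to 3, against 0.840%, 0.897% and 0.952% in AAV2-GFP 1 to 3. The means were 0.984 ± 0.030% with AAV2-Cre-GFP and 0.897 ± 0.056% with AAV2-GFP (mean ± SD, n = 3 each, as for every mean that follows). The groups did not overlap, but AAV2-Cre-GFP 2 and AAV2-GFP 3 were close to each other. After TMM scaling, the median gene stood 0.09, 0.04 and 0.04 above its own mean over the 6 libraries, on the log2 scale, in AAV2-Cre-GFP 1 to 3, and at -0.14, -0.05 and 0.04 in AAV2-GFP 1 to 3. AAV2-GFP 3 was thus at the level of the AAV2-Cre-GFP libraries, with 64 of 88 genes above their own mean. AAV2-GFP 1, the library with testis transcripts, was the lowest, with 10 of 88, and a link was not tested. Without AAV2-GFP 1 the median log2 difference was 0.07, and without AAV2-GFP 3 it was 0.16. Scaling by library totals alone moved it to 0.15 and the median of all genes to 0.04.

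**Figure D1:**
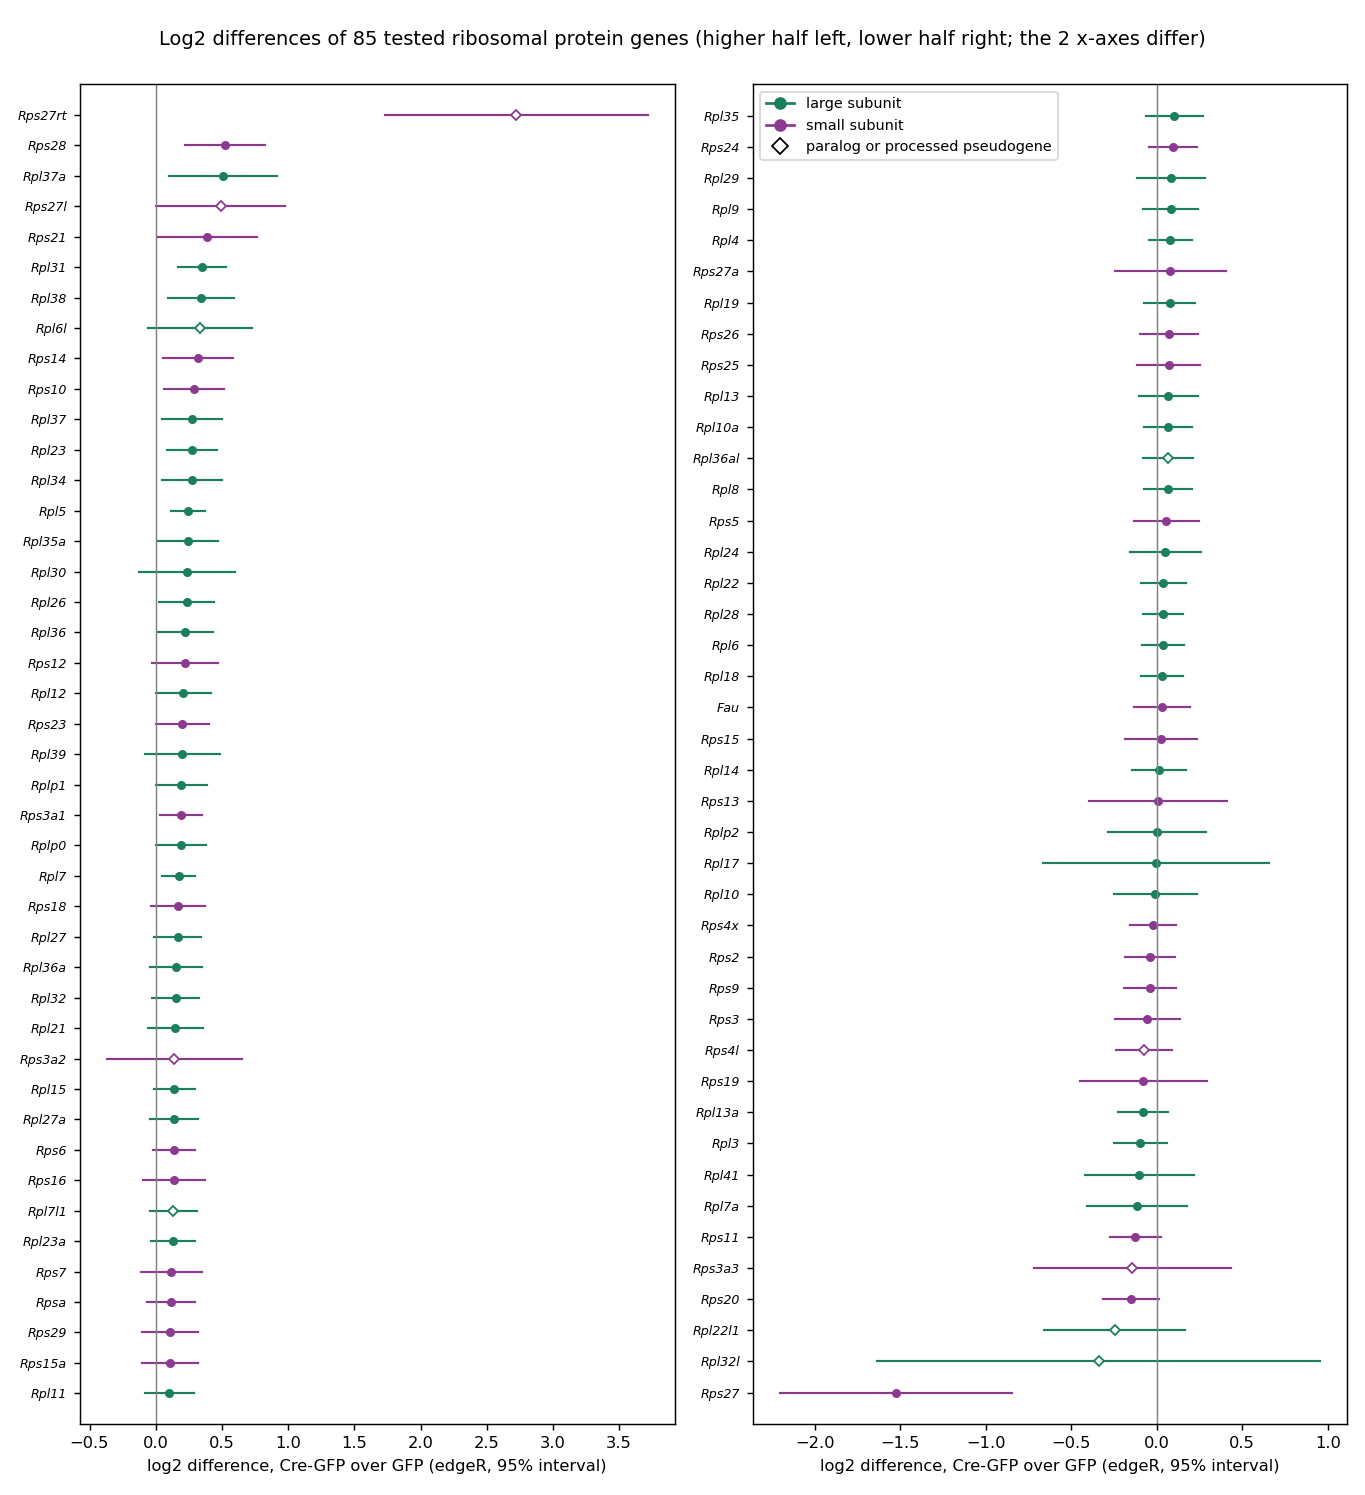
Log2 difference (x axis, AAV2-Cre-GFP over AAV2-GFP) of 85 of the 88 tested ribosomal protein genes, ordered by size in 2 panels with different x axes; points are edgeR estimates, lines are 95% intervals, and open diamonds are paralogs or processed pseudogenes. Most points lie a little to the right of 0, and Rps27rt (2.72) and Rps27 (-1.53) stand far from the rest.

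**Figure D2:**
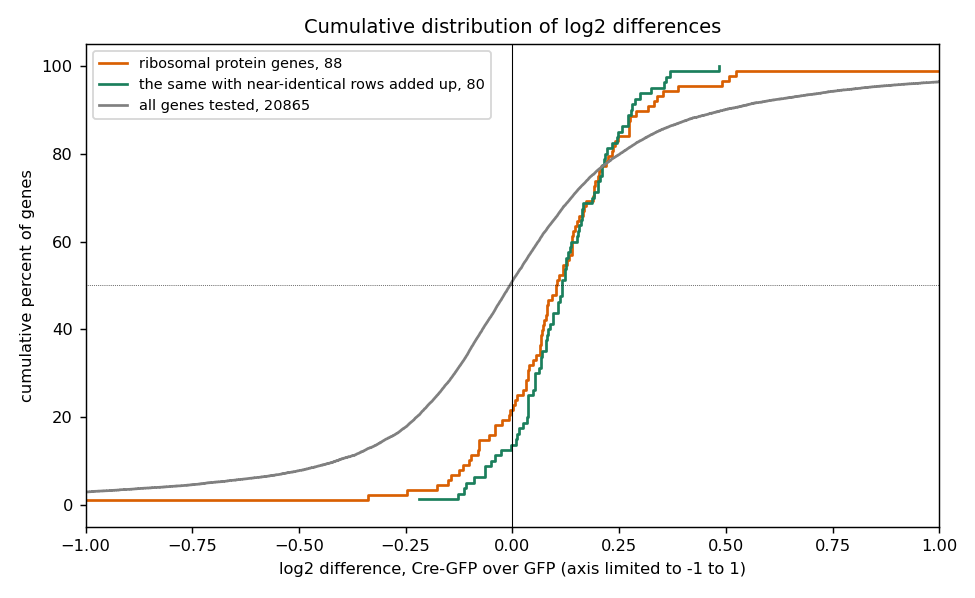
Cumulative percent of genes (y axis) at or below each log2 difference (x axis, limited to -1 to 1) for the 88 ribosomal protein genes, the same genes with rows that share sequence added up (80 families, named near-identical rows in the legend), and all 20865 tested genes. The ribosomal protein curves cross 50% near 0.10 and 0.12 and are steeper than that of all genes, which crosses near 0.

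The pair with the 2 smallest p-values is a gene and its copy. Rps27 encodes a zinc-finger protein of the small subunit and lies on chromosome 3 at 90212522-90213648, minus strand, in GRCm38. Rps27rt is an intronless copy of it, annotated as protein coding, on chromosome 9 at 114982366-114982739, minus strand, and lies inside Osbpl10 on the opposite strand. Rps27l on chromosome 9 is an older paralog with introns. The coding sequences are printed because they bear on which reads can tell the genes apart. Those of Rps27 and Rps27rt are the same in all 255 bases, and that of Rps27l differs at 61 bases (76.1% identity), marked in capitals, with no more than 11 bases in a row in common. Sequences are from the GENCODE M21 transcripts.
Rps27 and Rps27rt: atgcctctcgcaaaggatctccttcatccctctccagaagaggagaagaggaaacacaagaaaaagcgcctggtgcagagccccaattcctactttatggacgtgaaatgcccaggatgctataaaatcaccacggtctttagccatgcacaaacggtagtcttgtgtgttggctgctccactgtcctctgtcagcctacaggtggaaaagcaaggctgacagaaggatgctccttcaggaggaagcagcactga
Rps27l: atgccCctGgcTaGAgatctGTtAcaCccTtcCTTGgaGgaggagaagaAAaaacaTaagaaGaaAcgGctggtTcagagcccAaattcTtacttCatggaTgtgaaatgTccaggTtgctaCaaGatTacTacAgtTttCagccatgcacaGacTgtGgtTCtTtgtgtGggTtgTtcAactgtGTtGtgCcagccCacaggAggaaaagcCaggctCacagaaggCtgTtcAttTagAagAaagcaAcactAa

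Rps27rt had 93.0, 80.4 and 58.4 FPKM in AAV2-Cre-GFP libraries, against 4.89, 10.3 and 18.7 FPKM in AAV2-GFP libraries. The groups were far apart, and AAV2-Cre-GFP 3 and AAV2-GFP 3 lay nearest to each other. The log2 difference was 2.72 ± 0.43 (SE, edgeR adjusted p = 0.0705). Rps27 had 8.78, 8.53 and 19.1 FPKM in AAV2-Cre-GFP libraries, against 31.7, 35.3 and 35.9 FPKM in AAV2-GFP libraries. It went the other way, again with AAV2-Cre-GFP 3 nearest to the AAV2-GFP libraries, with a log2 difference of -1.53 ± 0.29 (edgeR adjusted p = 0.0809). Without AAV2-Cre-GFP 3, Rps27 was the only ribosomal protein gene past the threshold (log2 difference -2.0).

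Added together, the counts of the pair did not separate the groups. The sum was 50.9, 45.4 and 48.6 CPM in AAV2-Cre-GFP libraries and 40.5, 46.8 and 51.3 CPM in AAV2-GFP libraries, with means of 48.3 ± 2.75 CPM for AAV2-Cre-GFP and 46.2 ± 5.45 CPM for AAV2-GFP. In an edgeR fit of the summed row, chosen after seeing the data, the log2 difference was 0.03 ± 0.10, with a 95% interval of -0.19 to 0.25 (adjusted p = 0.913). What differed was the split: Rps27rt held 79.0%, 77.0% and 52.3% of the sum in AAV2-Cre-GFP libraries, against 5.25%, 9.47% and 15.7% in AAV2-GFP libraries. Osbpl10, the gene on the other strand, averaged 3.71 ± 0.41 FPKM with AAV2-Cre-GFP and 3.82 ± 0.66 FPKM with AAV2-GFP, with overlapping groups. Reads inside the coding sequence match both loci, and how the authors placed such reads is not given in the sources used here, so the levels of the single genes are uncertain.

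**Figure D3:**
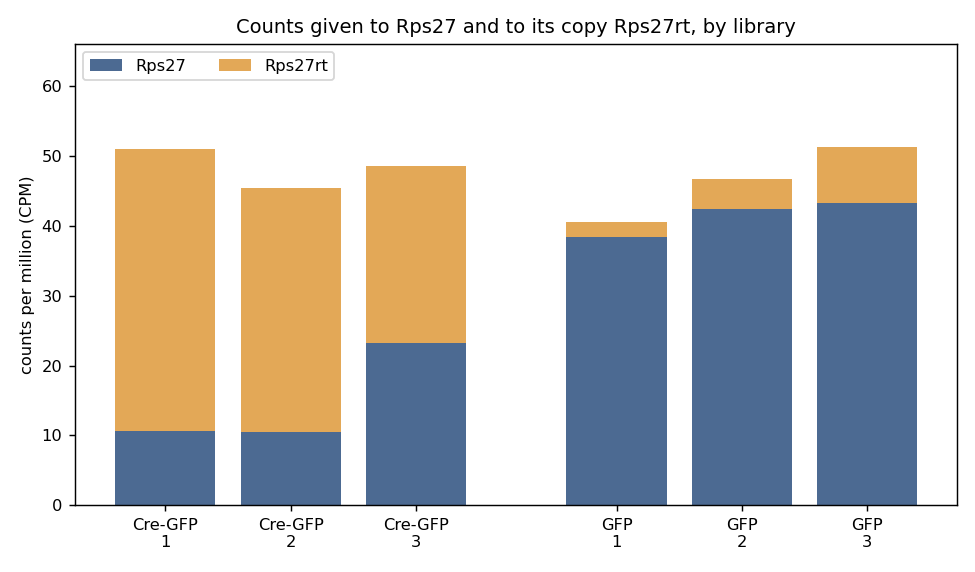
Library-scaled counts (CPM, y axis) given to Rps27 and to Rps27rt in each library, stacked; AAV2-Cre-GFP libraries are on the left. The stacks are of like height (40.5 to 51.3 CPM), but Rps27rt makes up 52.3% to 79.0% of them in AAV2-Cre-GFP libraries and 5.25% to 15.7% in AAV2-GFP libraries.

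Rps27l, a target of p53 in human cells, had 7.47, 6.40 and 8.81 FPKM in AAV2-Cre-GFP libraries, against 4.15, 5.53 and 5.97 FPKM in AAV2-GFP libraries. The groups did not overlap, but the gap between them was small beside their spread (log2 difference 0.49 ± 0.21, edgeR adjusted p = 0.284).

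The next genes by p belong to the exit tunnel rim and to the 5S particle of the large subunit. Rpl31, at the rim of the tunnel through which the new peptide leaves, had 60.0, 68.0 and 60.9 FPKM in AAV2-Cre-GFP libraries, against 45.3, 47.7 and 51.3 FPKM in AAV2-GFP libraries (log2 difference 0.35 ± 0.08, edgeR adjusted p = 0.103). Every AAV2-Cre-GFP library lay above every AAV2-GFP library. Of the 8 rim genes listed (Rpl4, Rpl17, Rpl19, Rpl23a, Rpl26, Rpl31, Rpl35 and Rpl39), 7 were above 0, with a median of 0.12. This count, and those of the other positions that follow, stand beside 69 of all 88 tested genes above 0 (median 0.10). Some of the counts rest on estimates near 0. With rows that share sequence added up, as described below, Rpl17 in the rim went from -0.0046 to 0.15. Rpl5, which binds the 5S ribosomal RNA with Rpl11 and can hold back the p53 ligase Mdm2, had 34.6, 36.8 and 36.0 FPKM with AAV2-Cre-GFP, against 28.9, 29.3 and 30.0 FPKM with AAV2-GFP (log2 difference 0.25 ± 0.06, edgeR adjusted p = 0.104). Its groups were tight and well apart. Rpl11 averaged 41.0 ± 2.12 FPKM in AAV2-Cre-GFP libraries and 37.2 ± 3.62 FPKM in AAV2-GFP libraries, with overlap (edgeR adjusted p = 0.548).

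Near the channel through which messenger RNA leaves the small subunit, all 4 genes listed (Rps14, Rps26, Rps28 and Rpsa) were above 0. Rps28 had 13.3, 13.8 and 14.0 FPKM in AAV2-Cre-GFP libraries, against 11.3, 8.39 and 8.17 FPKM in AAV2-GFP libraries. Its log2 difference of 0.52 ± 0.13 was the largest of any core gene in the upward direction (edgeR adjusted p = 0.126), and AAV2-GFP 1 stood above the other AAV2-GFP libraries. With the 7 rows that share sequence with it added up, as described below, the log2 difference was 0.08 ± 0.09 (edgeR adjusted p = 0.711). Rps28 overlaps Kank3 on the opposite strand, which averaged 4.25 ± 0.97 FPKM with AAV2-Cre-GFP and 3.53 ± 0.28 FPKM with AAV2-GFP. Rps14 averaged 57.0 ± 3.65 FPKM in AAV2-Cre-GFP libraries and 44.5 ± 7.25 FPKM in AAV2-GFP libraries without overlap (edgeR adjusted p = 0.222). Rpsa, also known as the laminin receptor, had 126, 121 and 124 FPKM with AAV2-Cre-GFP, against 97.9, 117 and 119 FPKM with AAV2-GFP. Only AAV2-GFP 1 lay well below the rest, and the edgeR adjusted p was 0.491.

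Among genes near the messenger RNA entry side (Rps2, Rps3 and Fau), 1 of 3 was above 0, and around the peptidyl transferase centre (Rpl3, Rpl8 and Rpl10) 1 of 3 was above 0. Neither count held with rows that share sequence added up: Rps2 went from -0.04 to 0.06 and Rpl10 from -0.0082 to 0.0099. Rpl3 averaged 123 ± 3.96 FPKM in AAV2-Cre-GFP libraries and 128 ± 9.97 FPKM in AAV2-GFP libraries. Rpl10, one of the last proteins to join the large subunit, averaged 74.7 ± 4.29 FPKM with AAV2-Cre-GFP and 73.2 ± 10.3 FPKM with AAV2-GFP, with a log2 difference of -0.01 that changed sign under 12 of 18 alternatives. For Rpl3 and Rpl10 the spread within AAV2-GFP was wider than the difference. Rpl8 had a log2 difference of 0.06.

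The stalk recruits the elongation factors. Its genes Rplp0, Rplp1, Rplp2 and Rpl12 were all above 0, with a median of 0.19. Rplp0, the base of the stalk, had 82.4, 94.3 and 101 FPKM in AAV2-Cre-GFP libraries, against 79.0, 79.5 and 78.7 FPKM in AAV2-GFP libraries. Its AAV2-GFP values were almost equal (log2 difference 0.19 ± 0.08, edgeR adjusted p = 0.284). AAV2-Cre-GFP 3, the highest, carries the muscle transcripts, and a link was not tested. Rplp1, an acidic stalk protein, had 284, 252 and 261 FPKM with AAV2-Cre-GFP, against 212, 213 and 253 FPKM with AAV2-GFP, with AAV2-GFP 3 level with AAV2-Cre-GFP 2 (edgeR adjusted p = 0.290). Rplp2, its partner, averaged 22.9 ± 2.18 FPKM with AAV2-Cre-GFP and 22.3 ± 3.75 FPKM with AAV2-GFP. Its estimate was close to 0 and changed sign when AAV2-Cre-GFP 1, AAV2-GFP 1 or AAV2-GFP 2 was left out.

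Further genes with small p were higher in every AAV2-Cre-GFP library than in any AAV2-GFP library. These were Rpl23, Rpl7, Rpl38, Rps10 and Rpl37a. Rpl23, another Mdm2-binding protein, had 53.5, 45.5 and 47.1 FPKM with AAV2-Cre-GFP, against 38.0, 36.9 and 42.7 FPKM with AAV2-GFP (edgeR adjusted p = 0.163). For Rpl23 the gap between the nearest libraries was smaller than the range within either group. Rpl7 had 51.8, 51.1 and 52.2 FPKM with AAV2-Cre-GFP and 42.4, 46.3 and 45.4 FPKM with AAV2-GFP (edgeR adjusted p = 0.176). Rpl38, whose loss of function gives the mouse mutant Tail short, had 56.7, 54.5 and 51.9 FPKM with AAV2-Cre-GFP, against 39.7, 37.5 and 48.1 FPKM with AAV2-GFP (edgeR adjusted p = 0.179). For Rpl7 and Rpl38 the AAV2-Cre-GFP values were closer together than the AAV2-GFP values.

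Rps10, a protein ubiquitinated on collided ribosomes, averaged 28.9 ± 2.20 FPKM in AAV2-Cre-GFP libraries and 23.1 ± 2.85 FPKM in AAV2-GFP libraries. Rpl37a had 37.0, 31.9 and 36.4 FPKM with AAV2-Cre-GFP, against 25.2, 29.7 and 17.2 FPKM with AAV2-GFP. The AAV2-GFP libraries of Rpl37a were widely scattered, and its log2 difference of 0.51 had a 95% interval of 0.10 to 0.91. The edgeR adjusted p was 0.205 for Rps10 and 0.206 for Rpl37a.

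**Figure D4:**
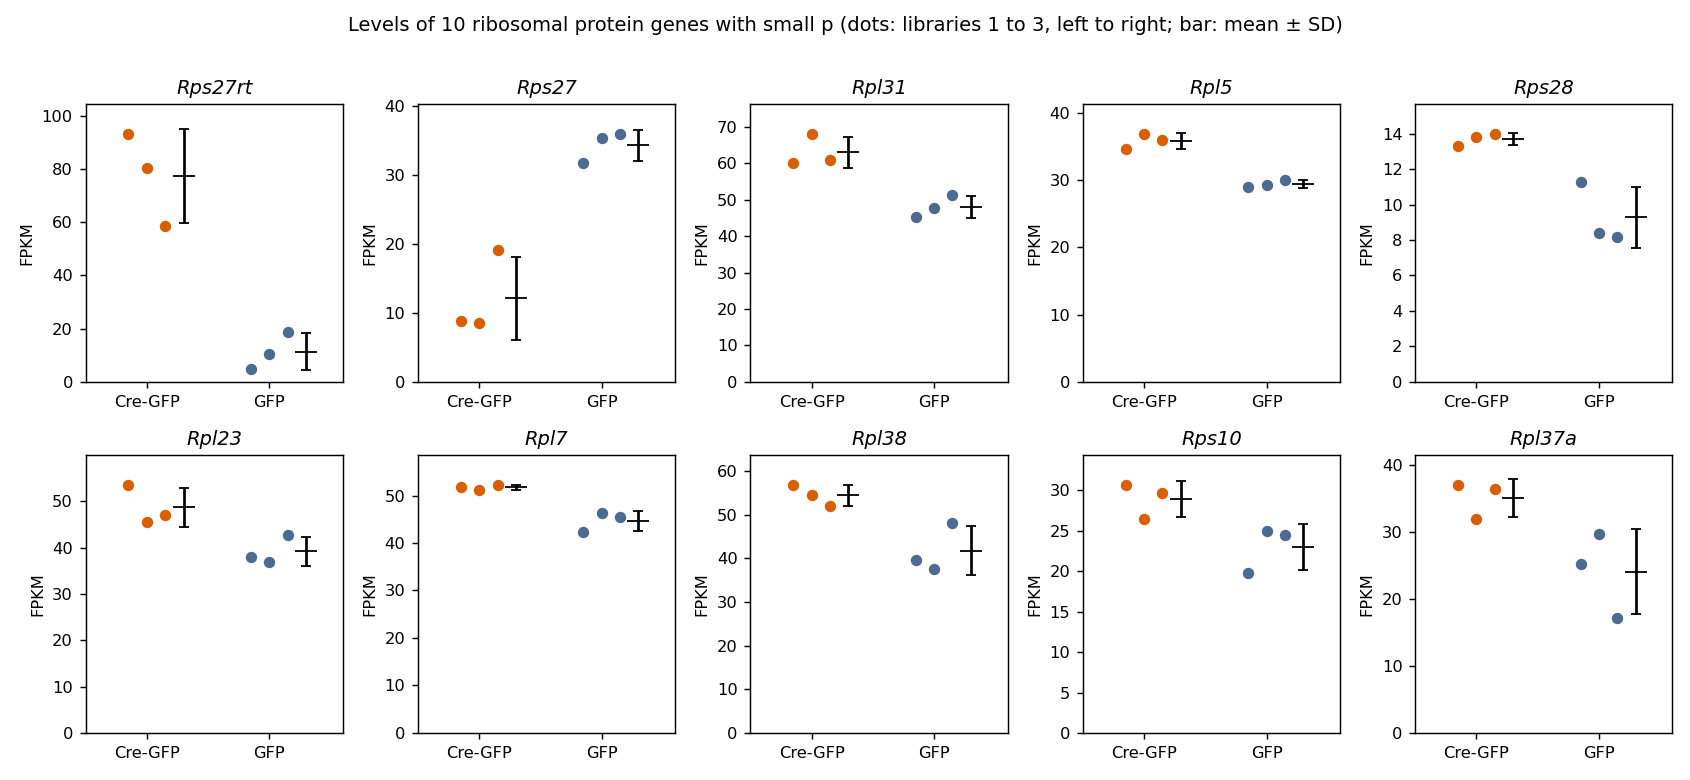
FPKM (y axis, from 0) of 10 of the 12 ribosomal protein genes with the smallest p; dots are libraries 1 to 3 of each group from left to right, and the bar beside them is the mean ± SD (n = 3). In all 10 panels the groups do not overlap, with AAV2-Cre-GFP lower for Rps27 and higher for the other genes.

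Levels differed widely between genes on the per-length scale. The mean FPKM over all 6 libraries ran from 6.48 to 269 among the 78 core genes, with a median of 47.3. The authors' FPKM divides by the length of all annotated exons of a gene joined together (383 to 6270 bases among core genes), which includes retained introns, so genes with many annotated transcripts read low and the order is not that of intact messenger RNAs. The highest levels were those of Rps15, Rplp1, Rps3a1, Rpl4, Rpl19 and Rpl8. Rps15, which lies close to the decoding centre, had 276, 260 and 288 FPKM in AAV2-Cre-GFP libraries, against 232, 260 and 297 FPKM in AAV2-GFP libraries. Those ranges overlapped fully (edgeR adjusted p = 0.923), and Rps15 and Rplp1 did not differ from each other beyond their spread. Rps3a1, on the platform of the small subunit, had 236, 213 and 227 FPKM with AAV2-Cre-GFP, against 175, 197 and 204 FPKM with AAV2-GFP (edgeR adjusted p = 0.224). Rpl4, which reaches into the exit tunnel, averaged 173 ± 2.02 FPKM with AAV2-Cre-GFP and 159 ± 7.61 FPKM with AAV2-GFP. Rpl19 averaged 169 ± 4.96 FPKM with AAV2-Cre-GFP and 156 ± 10.9 FPKM with AAV2-GFP, and Rpl8 averaged 149 ± 3.54 FPKM with AAV2-Cre-GFP and 139 ± 8.99 FPKM with AAV2-GFP. The neighbours Rpl4 and Rpl19 overlapped in level. Within a group, the SD of the median core gene was 5.52% of its mean in AAV2-Cre-GFP libraries and 7.65% in AAV2-GFP libraries.

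Among core genes 15 were below 0. Rps20, chosen here because its groups did not overlap, had 8.38, 7.96 and 7.85 FPKM with AAV2-Cre-GFP and 9.32, 8.42 and 8.41 FPKM with AAV2-GFP. The nearest libraries differed by less than the range of either group (log2 difference -0.15 ± 0.07, edgeR adjusted p = 0.329).

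The 2 core genes made as fusions, cut after translation, were close to 0. Rps27a, fused to ubiquitin, had 36.8, 34.4 and 35.5 FPKM in AAV2-Cre-GFP libraries, against 27.2, 30.1 and 40.9 FPKM in AAV2-GFP libraries (edgeR adjusted p = 0.820). The AAV2-GFP libraries spanned the AAV2-Cre-GFP ones. Fau, fused to a ubiquitin-like part, averaged 60.0 ± 3.55 FPKM with AAV2-Cre-GFP and 57.2 ± 3.29 FPKM with AAV2-GFP (edgeR adjusted p = 0.867). Leaving out AAV2-GFP 1 changed the sign of both.

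The 3 paralogs known from other tissues did not pass the filter on low counts. Rpl10l, a testis gene that stands in for X-linked Rpl10 in male meiosis, had 4, 0 and 0 counts in AAV2-Cre-GFP libraries, against 268, 0 and 8 counts in AAV2-GFP libraries. Rpl39l, another testis paralog, had 0 counts in every AAV2-Cre-GFP library, against 195, 5 and 0 counts in AAV2-GFP libraries. Both were thus found almost wholly in AAV2-GFP 1, the library in which testis genes summed to 298 CPM. Rpl3l, a paralog of heart and skeletal muscle, had 0, 3 and 32 counts in AAV2-Cre-GFP libraries and 0 counts in every AAV2-GFP library. Its 32 counts came from AAV2-Cre-GFP 3, the library with 160 CPM of skeletal muscle genes. Between 0 and 2.05% of the 31-base words of these genes occur at another gene locus, those of Rpl10, Rpl39 and Rpl3 included.

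**Figure D5:**
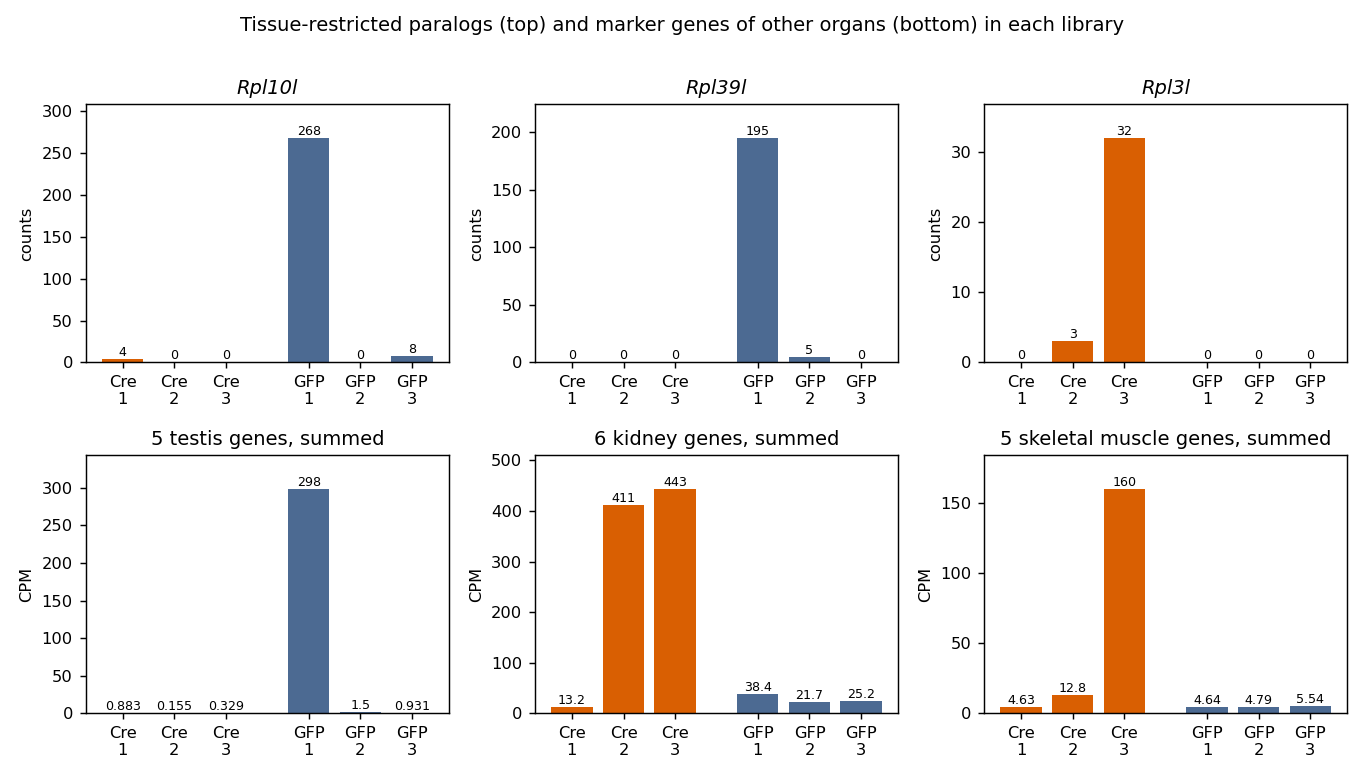
Counts of Rpl10l, Rpl39l and Rpl3l (top row) and summed CPM of testis, kidney and skeletal muscle marker genes (bottom row) in each library; AAV2-Cre-GFP libraries are on the left of each panel. Rpl10l (268 counts) and Rpl39l (195 counts) stand out in AAV2-GFP 1 with the testis genes, and Rpl3l (32 counts) in AAV2-Cre-GFP 3 with the muscle genes.

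The other paralogs passed the filter on low counts. Rpl7l1 averaged 11.1 ± 0.22 FPKM in AAV2-Cre-GFP libraries and 9.85 ± 0.82 FPKM in AAV2-GFP libraries, and its relative Rpl7 averaged 51.7 ± 0.54 FPKM with AAV2-Cre-GFP and 44.7 ± 2.06 FPKM with AAV2-GFP. Rpl22l1, a paralog of Rpl22, had 9.74, 6.83 and 5.75 FPKM with AAV2-Cre-GFP, against 8.07, 8.89 and 8.79 FPKM with AAV2-GFP (log2 difference -0.25 ± 0.18, edgeR adjusted p = 0.521). AAV2-Cre-GFP 1 was the highest of the 6, and AAV2-Cre-GFP 2 and 3 were the lowest. Rpl22 averaged 17.4 ± 0.62 FPKM with AAV2-Cre-GFP and 16.5 ± 0.47 FPKM with AAV2-GFP. Rpl36al averaged 23.6 ± 0.28 FPKM with AAV2-Cre-GFP and 21.9 ± 0.37 FPKM with AAV2-GFP without overlap, and X-linked Rpl36a averaged 23.9 ± 2.35 FPKM with AAV2-Cre-GFP and 20.8 ± 1.26 FPKM with AAV2-GFP. Rps4l, an intronless copy that GENCODE lists as a transcribed processed pseudogene, averaged 25.7 ± 0.54 FPKM with AAV2-Cre-GFP and 26.4 ± 0.71 FPKM with AAV2-GFP, and X-linked Rps4x averaged 96.5 ± 4.02 FPKM with AAV2-Cre-GFP and 95.5 ± 4.63 FPKM with AAV2-GFP. For none of these 4 pairs did either gene pass the edgeR test (adjusted p 0.176 or more). Rpl39, the parent of Rpl39l, had 11.0, 9.89 and 9.26 FPKM with AAV2-Cre-GFP and 7.83, 8.07 and 9.57 FPKM with AAV2-GFP.

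Levels of the 4 processed pseudogenes among the 91 differed. Rpl6l averaged 10.7 ± 1.63 FPKM in AAV2-Cre-GFP libraries and 8.29 ± 0.97 FPKM in AAV2-GFP libraries. Rps3a2 averaged 3.40 ± 0.36 FPKM with AAV2-Cre-GFP and 3.00 ± 0.28 FPKM with AAV2-GFP. Rps3a3 averaged 2.01 ± 0.17 FPKM with AAV2-Cre-GFP and 2.15 ± 0.27 FPKM with AAV2-GFP. Rpl32l averaged 0.584 ± 0.169 FPKM with AAV2-Cre-GFP and 0.704 ± 0.222 FPKM with AAV2-GFP. For Rpl6l the groups did not overlap, with a log2 difference of 0.33 ± 0.17 (edgeR adjusted p = 0.367). The groups of the other 3 overlapped, and reads of the parent genes can be counted on all 4. On the same strand, Rpl32l overlaps Map7 (mean 3683 counts) and Rps3a3 overlaps Pde4d (mean 1971 counts). The part of Map7 and Pde4d reads in these rows was not tested.

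Copies of this kind are common for ribosomal protein genes, and reads of 1 gene can be spread over many rows. A row was taken as a copy, called near-identical here, when 20% or more of its 31-base words occur in a ribosomal protein gene at another locus. The rest of such a row can differ. Such rows were found for 85 of the 91 genes, with a median of 5 per gene and 56 for Rpl21. Rows linked through a shared copy were joined, so a family of 32 rows holds Rps18, Rps24 and Rps25, which are different proteins. Adding up linked rows, a step chosen after seeing the data, gave 83 families, of which 80 could be tested. The median log2 difference was 0.12, 69 families were above 0, and 0 passed an edgeR adjusted p of 0.05 (smallest 0.0853). At an unadjusted edgeR p under 0.05, 26 families were higher (9.13% of all rows) and 0 were lower (8.32% of all rows). The median was thus above 0 whether rows were kept apart or added up.

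Single genes moved more. Rpl7a alone had a log2 difference of -0.12 ± 0.13 (edgeR adjusted p = 0.689), but its family of 39 rows had 220, 224 and 230 CPM in AAV2-Cre-GFP libraries, against 185, 180 and 195 CPM in AAV2-GFP libraries. The Rpl7a family had the smallest p of all families (log2 difference 0.27 ± 0.05, edgeR adjusted p = 0.0853), and its row Rpl7a-ps11, named as a pseudogene, averaged 65.0 ± 0.86 FPKM with AAV2-Cre-GFP and 48.9 ± 3.05 FPKM with AAV2-GFP. Rps28, at 0.52 alone, came to 0.08 ± 0.09 as a family of 7 rows. The family had 35.1, 34.3 and 35.5 CPM with AAV2-Cre-GFP and 32.6, 29.6 and 37.0 CPM with AAV2-GFP. The groups of the Rps28 family overlapped. Rpl37a, at 0.51 alone, came to 0.19 ± 0.06 in a family of 12 rows that holds Rpl7l1 as well. Rps12 went the other way, at 0.22 alone and 0.36 ± 0.08 as a family of 18 rows. Rpl5 kept its value, at 0.25 alone and 0.24 ± 0.05 as a family of 7 rows, and so did Rpl31, at 0.35 and 0.37 ± 0.08. Among rows named as pseudogenes of ribosomal protein genes, 73 of 111 tested were above 0, with a median of 0.16. Of these rows 9 (8.11%) were higher and 0 lower at an unadjusted edgeR p under 0.05, the same share as the 8.11% higher of all genes. DESeq2 called 3 of the 111 rows as higher and 0 as lower. Its shares of 3.66% higher and 5.4% lower cover only the 16304 genes with a DESeq2 adjusted p. How many of the 111 rows had one was not counted, so a share of these rows is not set against them.

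The start sites were searched for the TOP tract. RefSeq promoters (GRCm38.p6) were matched by symbol for 58 of the 78 core genes. A C followed by at least 4 bases that are each C or T stood exactly at the annotated start in 14 of the 58 (24.1%), against 3.01% of 27025 genes, and began within 5 bases of it in 28 (48.3%), against 21.2%. The windows printed here, 15 bases before and 15 from the start, are those of the 4 genes with the smallest p. The run is in capitals where there is one within 5 bases. The Rpl5 window lies inside its gene row, which starts at 107900502, so the absence of a run holds for the start used here only.
Rps27rt chr9:114982725-114982754, minus strand: agaacttatcccttgCTTTCCggcggtgac
Rps27 chr3:90213634-90213663, minus strand: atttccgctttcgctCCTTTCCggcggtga
Rpl31 chr1:39367836-39367865, plus strand: cttcctcctcgcCTCCCCgtgacccggaag
Rpl5 chr5:107900513-107900542, plus strand: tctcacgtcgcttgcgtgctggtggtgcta
Rps27rt begins with nearly the same tract as Rps27, and the sequence from there on is shared, for 38 bases in the RefSeq window. Upstream of it only 21 of 100 bases were identical at the same positions. In the whole window of 250 bases before and 50 after the start, on either strand, the letters CCGGAAGT were found in 11 of the 58 (19.0%, against 4.31% of all genes), AAGATGGCG in 3 (5.17%, against 1.64%) and TATAAA in 6 (10.3%, against 15.7%). A match describes the letters in this window, not a bound factor.

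Genes that work with the ribosome were counted in the same way, and their medians lay near 0. No gene of these lists passed an edgeR adjusted p of 0.05. DESeq2 called 4 higher and 2 lower among the other TOP messenger RNAs, and 1 higher and 2 lower among initiation and elongation factors. It called 1 lower among regulators and 0 in the other lists of this group. Of the 16304 genes to which it gave an adjusted p, it called 3.66% higher and 5.4% lower. At an unadjusted edgeR p under 0.05, the counts given for each list stand beside 8.11% of all genes higher and 9.11% lower. Other TOP messenger RNAs were above 0 in 14 of 25 cases (median 0.03), with 5 higher and 4 lower at an unadjusted p under 0.05. Eif3f, a subunit of initiation factor eIF3, had 29.9, 31.7 and 31.3 FPKM in AAV2-Cre-GFP libraries, against 41.2, 40.8 and 40.1 FPKM in AAV2-GFP libraries (log2 difference -0.43 ± 0.05, edgeR adjusted p = 0.0694). Its groups were tight and far apart. Tpt1, a classic TOP messenger RNA, averaged 83.5 ± 4.99 FPKM with AAV2-Cre-GFP and 67.5 ± 0.73 FPKM with AAV2-GFP (edgeR adjusted p = 0.111), and Gas5, a TOP host of small nucleolar RNAs, averaged 24.8 ± 3.23 FPKM with AAV2-Cre-GFP and 18.2 ± 1.65 FPKM with AAV2-GFP (edgeR adjusted p = 0.124).

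Initiation and elongation factors were above 0 in 17 of 40 cases (median -0.03), with 2 higher and 7 lower at an unadjusted p under 0.05. Eef1a2, the elongation factor of neurons and muscle, averaged 252 ± 19.5 FPKM in AAV2-Cre-GFP libraries and 326 ± 11.0 FPKM in AAV2-GFP libraries (log2 difference -0.41 ± 0.07, edgeR adjusted p = 0.0757). The neuron markers were lower in the same libraries, and a link between them and Eef1a2 was not tested. Eif4a1 averaged 30.5 ± 0.51 FPKM with AAV2-Cre-GFP and 26.2 ± 0.09 FPKM with AAV2-GFP (edgeR adjusted p = 0.145), and the release factor gene Etf1 averaged 19.6 ± 0.60 FPKM with AAV2-Cre-GFP and 22.2 ± 1.03 FPKM with AAV2-GFP (edgeR adjusted p = 0.146).

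Ribosome biogenesis factors were above 0 in 28 of 52 cases (median 0.01), with 2 higher and 3 lower at an unadjusted p under 0.05. Nop14, Bysl and Rrp12, factors of small-subunit assembly, had the smallest p, with log2 differences of -0.25, -0.22 and -0.20 (edgeR adjusted p 0.158 to 0.276). The RNA polymerase I machinery was above 0 in 9 of 15 cases (median 0.04), with 1 higher and 0 lower at an unadjusted p under 0.05. Ttf1, a terminator of ribosomal RNA transcription, averaged 3.15 ± 0.36 FPKM with AAV2-Cre-GFP and 2.38 ± 0.11 FPKM with AAV2-GFP (edgeR adjusted p = 0.150). Regulators of ribosomal protein genes were above 0 in 11 of 22 cases (median -0.0024), with 1 higher and 2 lower at an unadjusted p under 0.05. Larp1, the TOP-binding protein, averaged 23.8 ± 1.77 FPKM in AAV2-Cre-GFP libraries and 27.9 ± 1.17 FPKM in AAV2-GFP libraries (log2 difference -0.27 ± 0.07, edgeR adjusted p = 0.136). Quality control factors were above 0 in 6 of 12 cases (median -0.01), with 1 higher and 0 lower at an unadjusted p under 0.05. Gtpbp2, which helps rescue stalled ribosomes, averaged 12.5 ± 0.38 FPKM with AAV2-Cre-GFP and 10.7 ± 0.19 FPKM with AAV2-GFP.

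R2TP and RUVBL partners were above 0 in 6 of 12 cases (median -0.0046), with 1 higher and 1 lower at an unadjusted p under 0.05. Ruvbl1 averaged 14.7 ± 1.21 FPKM with AAV2-Cre-GFP and 12.7 ± 1.04 FPKM with AAV2-GFP (edgeR adjusted p = 0.405), and Znhit6, a small nucleolar particle assembly factor, averaged 5.91 ± 0.47 FPKM with AAV2-Cre-GFP and 7.19 ± 0.22 FPKM with AAV2-GFP (edgeR adjusted p = 0.147). Mitochondrial ribosomal proteins, which build a separate ribosome, were above 0 in 48 of 78 cases (median 0.04), with 7 higher and 2 lower at an unadjusted edgeR p under 0.05. The medians of these lists were nearer to that of all genes than was the median of the 88 cytosolic ribosomal protein genes.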

How the data were processed

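Stranded poly(A) RNA libraries were sequenced as read pairs, per the labels' protocols; cutadapt, HISAT2 and StringTie appear in the submitters' processing notes without versions. Whether strand was used, and how reads matching several loci were placed, is not given in the sources used here. The authors deposited whole-number counts per gene without normalization, and FPKM values, which equal the counts divided by GENCODE exon-union length and by 1.15 to 1.16 times the summed counts. The notes name mm9, but 91.4% of shared identifiers have GENCODE M21 (GRCm38) coordinates, so those are given.

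The count test was edgeR 4.0.16 (quasi-likelihood, TMM, filterByExpr at minimum count 10, R 4.3.3), two-sided, without covariates, Benjamini-Hochberg adjusted over 20865 genes, threshold 0.05. DESeq2 1.42.0 and limma 3.58.1 on log2(FPKM + 0.5) were alternatives, with other scalings and filters, a replicate block and libraries left out. The common biological coefficient of variation was 27.1%. Library totals were 41890769 to 54702785 counts. The test was checked on simulated counts. At an adjusted p under 0.05, edgeR recovered 28.4% of simulated 1.5-fold changes and 65.2% of 4-fold changes, with 8 false calls. DESeq2 recovered 41.8% and 74.2%, with 57 false calls. Changes smaller than 1.5-fold were not simulated. Every pair of libraries of a group differed beyond counting noise (chi-square per gene 11.4 or more).

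The ribosomal protein genes and all lists were chosen with earlier results of these data known. Genes named are the 12 with the smallest p, the 6 highest by FPKM, the 3 with the largest difference, stalk and fusion genes, Rpsa, paralogs with their parents, up to 3 genes per companion list, and Ruvbl2; others were chosen after their values were seen. A few of these genes are not reported here. Promoters are from RefSeq, transcripts from GENCODE M21.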

Additional observations from a re-analysis of the deposited data

How the results depend on the processing

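The number of ribosomal protein genes past the adjusted threshold was 0 in the edgeR fit with all libraries. It was 10 with DESeq2 and 7 (4 higher and 3 lower: Rpl23, Rpl35a, Rpl41, Rpl7a, Rps27, Rps27rt and Rps28, where 1.24% of all genes were called higher and 3.57% lower) without AAV2-GFP 1, AAV2-Cre-GFP 2 and AAV2-Cre-GFP 3, the 3 libraries with other organs' transcripts; that fit leaves 1 AAV2-Cre-GFP library, assumed to vary like the others. Leaving out 1 library at a time gave 0 to 1 (Rps27, without AAV2-Cre-GFP 3); the cause was not tested. The median log2 difference kept its sign under all 18 alternatives, at 0.071 (without AAV2-GFP 1) to 0.164 (without AAV2-GFP 3) with 1 library left out, and the level of members, as the gap between group means of their share of counts, was 0.0588 to 0.115 percentage points. Ruvbl2, the targeted gene, was at -0.029 (without AAV2-GFP 2) to 0.181. Of 1073 values of named genes under alternatives, 1011 kept direction and side of the threshold, 32 came past it and 30 changed sign. Rps27 was at 0.034 with the rows of its family added and at 0.029 with Rps27rt alone added. Without the 3 libraries, Rps15 was at -0.067, Rps27a at -0.0049 and Rpl22l1 at 0.086. Rpl10 was at 0.038 with library totals alone, 0.011 without the count filter, 2.81e-05 with a replicate block, 0.0099 as a family, and 0.037 (pseudocounts 0.5, with and without a filter, and 1) or 0.038 (0.1) in limma; Rps4x was at 0.022 with library totals alone and 0.015 in the 4 limma fits. With 1 library left out, log2 differences ran from -0.060 to 0.125 for Rps15, -0.094 to 0.151 for Rplp2, -0.019 to 0.090 for Fau, -0.041 to 0.278 for Rps27a, -0.122 to 0.077 for Rpl10 and -0.054 to 0.021 for Rps4x. Library numbers did not pair the samples (correlations of deviations -0.044, 0.012 and -0.022); with them as a block 0 ribosomal protein genes passed and the median was 0.11. The 95% interval of Rpl5 was 0.12 to 0.37.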
